A study of Mus musculus with 167 samples.

Results

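Wild-type (WT) liver was examined at 2, 6 and 10 months of age by small RNA sequencing, with 10 months set against 2 months and the position of 6 months between them described. The samples were chosen by their titles, and they are 24 of the 167 libraries of a series built on *Htt* knock-in mice. These are heterozygous, with 1 wild-type and 1 engineered huntingtin allele, whose CAG repeat length names the line (Q20, Q80, Q92, Q111, Q140 or Q175). Each age group held 8 mice, 4 females and 4 males, and different mice were taken at each age, so no animal was followed over time. All 24 are on the C57BL/6 strain, carry no engineered allele and, per the study's methods, are wild-type littermates of Q20 mice, with which they shared cages. The Q20 line, with a repeat in the normal range, is the nearest comparison group, with 8 mice at each age. At 10 months 5 of them are labelled female and 3 male, and female 1 carries in its library name the code otherwise found on males of that age. A bulk liver library pools all cells, so a rise or fall in a microRNA cannot be told apart from a change in the share of the cells that make it. The study's methods list wild-type liver at 2 and 10 months only, while the labels hold 8 wild-type livers at 6 months.

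MicroRNAs are short RNAs cut from hairpin precursors. They guide Argonaute proteins to messenger RNAs, mostly by pairing through the seed, the bases 2 to 8 of the mature strand, and lower the stability and translation of their targets. Several precursors are often cut from 1 primary transcript, so that neighbours in the genome share transcription, and families with a common seed share many predicted targets. Adult liver is rich in a few of them, Mir122 and Mir192 among others, and its cells also differ between the sexes in many transcripts.

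The mature strands of the precursors on which the results turn are given here, because the counts are per precursor and do not separate its arms. They come from RefSeq (GRCm38.p6), which held a mature sequence for 29 of the 33 precursors named by rule and for 211 of the 274 tested. Capitals mark the seed. The first set shows both arms of the 4 precursors that rose most between 2 and 10 months.
Mir743b, miR-743b-3p: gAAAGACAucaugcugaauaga
Mir743b, miR-743b-5p: uGUUCAGAcugguguccauca
Mir881, miR-881-3p: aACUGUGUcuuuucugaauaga
Mir881, miR-881-5p: cAGAGAGAuaacagucacaucu
Mir470, miR-470-3p: aACCAGUAccuuucugagaaga
Mir470, miR-470-5p: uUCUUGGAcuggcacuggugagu
Mir592, miR-592-3p: uCAUCACGuggugacgcaacau
Mir592, miR-592-5p: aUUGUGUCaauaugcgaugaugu
The 4 shared no seed on either arm. The second set shows 5p arms of families that stood apart at 6 months, where members with 1 seed moved together in the miR-99 and miR-100 family and apart in the miR-30 family.
Mir100, miR-100-5p: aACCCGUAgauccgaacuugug
Mir99a, miR-99a-5p: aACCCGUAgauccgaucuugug
Mir99b, miR-99b-5p: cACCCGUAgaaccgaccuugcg
Mir30a, miR-30a-5p: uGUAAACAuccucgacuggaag
Mir30e, miR-30e-5p: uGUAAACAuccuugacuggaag
Mir30c-1 and Mir30c-2, miR-30c-5p: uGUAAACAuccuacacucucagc
Mirlet7d, let-7d-5p: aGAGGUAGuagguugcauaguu
Mirlet7a-1, let-7a-5p: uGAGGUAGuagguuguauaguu
Mirlet7c-1, let-7c-5p: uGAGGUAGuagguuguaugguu

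The 24 libraries held 1.69 to 4.62 M counts (M, mega), so that 3 counts, the limit that a count of 0 allows, corresponded to between 0.649 and 1.77 counts per mega of the library's total (CPM). Levels in CPM describe single libraries, and changes are log2 changes from a fit across all 274 precursors tested, scaled by TMM. A precursor is termed called when its Benjamini-Hochberg adjusted p-value was under 0.05 in edgeR's quasi-likelihood test. The 13 precursors of a list of hepatocyte-rich microRNAs summed to between 515064 and 586318 CPM in every library, and Mir122, the liver's defining microRNA, lay between 8909 and 30532 CPM. Lists of muscle and pancreas microRNAs summed to at most 72.0 and 126 CPM.

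Libraries standing apart from their group are described first, since results at 6 months rest on them. Mir22 took 17.9% to 22.4% of all counts in the 8 libraries at 2 months. At 6 months it took 7.25% to 8.95% in 7 libraries and 20.2% in the eighth, female 3. At 10 months it took 18.9% to 22.9% in 6 libraries, 8.19% in female 4 and 7.71% in male 4. Female 3 at 6 months thus resembled the livers at 2 and 10 months, and the last 2 resembled those at 6 months. Mir743b, which differs by sex and age as described in what follows, was at 4.76, 11.04 and 136 CPM in these 3 livers, within or next to the range of the others of the same labelled sex and age.

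A Mir22 share below 12% was found only among wild-type libraries at 6 months and the highest-numbered libraries at 10 months, and not in all of either. The wild-type libraries at 6 months carry the consecutive numbers 323203 to 323210, shortly after the highest numbers at 10 months, 323185 to 323194. Those of the knock-in lines at 6 months are numbered 450 to 847. In these 48 libraries Mir22 took 15.98% to 22.4%, with 0 below 12%. Among all libraries at 10 months, the 45 with lower numbers also had 0 below 12%, while the 10 with the highest numbers had 7 below it, the wild-type female 4 and male 4 and 5 of 8 from knock-in lines. All 10 carry lane number 3 in their names, as do some of those with lower numbers. All 56 libraries at 2 months were at 13.7% or higher. Over all lines these are numbered 322972 to 323027, and those at 10 months 323140 to 323194. Age and library set thus cannot be told apart, in wild type at 6 months and in any line between 2 and 10 months. What set the libraries with a low Mir22 share apart was not tested. The counts of called precursors and the 10 called between 2 and 10 months are therefore given with all 24 libraries and without the 3 that stood apart.

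**Figure D1:**
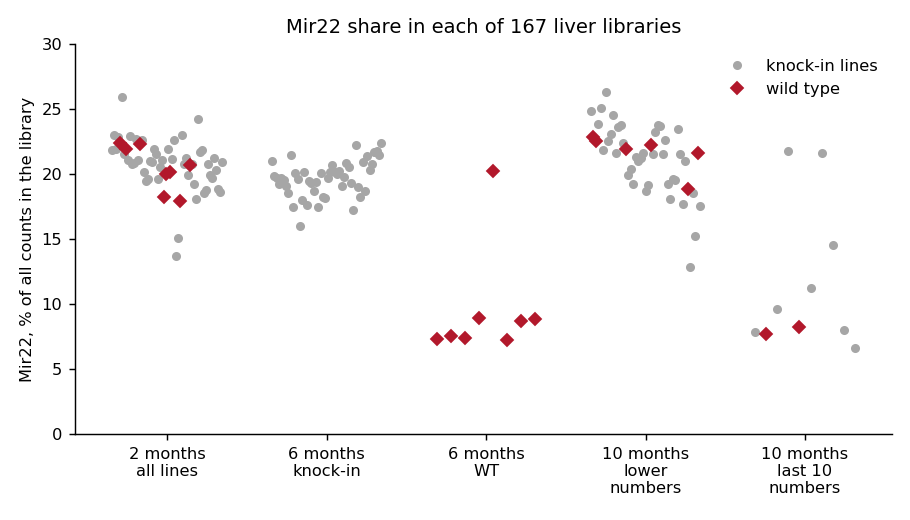
Share of all counts taken by Mir22 (vertical axis, percent) in each of the 167 libraries, in 5 sets by age and library number, with 1 point per library in order of number within a set. Wild-type libraries are red diamonds and knock-in libraries grey circles, and 7 of 8 wild-type livers at 6 months lay below 12%, as did 7 of the 10 highest-numbered libraries at 10 months.

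Between 2 and 10 months, 10 precursors changed, which is 3.65% of the 274 tested, and 9 of them rose (3.28%) while 1 fell (0.365%). The rises were led by 3 neighbours on the X chromosome, Mir743b, Mir881 and Mir470, and by Mir592, all 4 of which were also higher in males. Mir501, Mir184, Mir486, Mir140 and Mir221 rose by less, and Mir30b, a member of the miR-30 family, fell. Most other precursors were within the spread between mice, with a median log2 change of 0.04 over all tested and 40 of 274 at an unadjusted p under 0.05. Without the 3 libraries that stood apart, 15 were called, 10 of them higher, and 8 of the 15 were among the original 10, all with the same direction. Mir486 and Mir140 were the 2 calls lost. The libraries also carry a lane number, which differed between the ages, and with it as a term Mir743b, Mir592, Mir881 and Mir470 were called (3.94, 2.12, 3.76 and 3.93) while the other 6 were not. Only lane number 3 occurs at all 3 ages, and its livers at 10 months are females 3 and 4 and male 4. The last 2 of these stood apart, so results by lane lean on them. Over all lines, some libraries of different ages carry the same lane number and index code in their names. A shared lane number therefore need not mean a shared sequencing run. Neither a lane term nor lane number 3 alone can remove a difference between runs.

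Mir743b (chrX:66777256-66777332, minus strand, mm10) lies in an X-linked group of microRNAs best known from the testis, and the annotation holds no other gene there. In females its level was 1.08, 0.997, 2.54 and 2.55 CPM at 2 months, 5.86, 4.80, 4.76 and 6.52 CPM at 6 months, and 9.16, 6.50, 12.7 and 11.04 CPM at 10 months. In males it was 11.4, 12.9, 12.7 and 10.0 CPM at 2 months, 105, 25.1, 68.3 and 78.2 CPM at 6 months, and 192, 124, 343 and 136 CPM at 10 months. Males at the 3 ages did not overlap, and neither did females at 2 months with those at the later ages, while the lowest female at 10 months, 6.50 CPM, lay just under the highest at 6 months, 6.52 CPM. Across both sexes the log2 change from 2 to 10 months was 3.59 ± 0.34 (SE; adjusted p-value 7.94e-08), with 2.58 ± 0.34 already reached by 6 months (adjusted p-value 5.23e-06) and 1.01 ± 0.29 between 6 and 10 months (adjusted p-value 0.0105). Fitted in males alone the change was 3.99 and in females alone 2.54, and both were called. It was 3.56 without the 3 libraries that stood apart and 3.96 within lane number 3 alone (2, 3 and 3 livers at the 3 ages), each called as well. Of the 3 livers with lane number 3 at 10 months, 2 are among those that stood apart.

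Mir881 (chrX:66801944-66802021) and Mir470 (chrX:66813951-66814025), on the same strand within the same X-linked group, were also higher at 10 than at 2 months and higher in males. Mir881 lay between 2.71 and 5.91 CPM in males at 2 months, between 6.92 and 27.4 at 6 months and between 24.9 and 50.01 at 10 months. In females at 2 months it was at 0 to 0.997 CPM, at or under the level of 3 counts in each library, and at 10 months it was at 1.46 to 3.92 CPM, so that no fold is given for females. Its log2 change from 2 to 10 months was 3.34 ± 0.41 (SE; adjusted p-value 2.44e-06), 3.07 without the 3 libraries and 3.77 within lane number 3, called in each. Males at 6 and 10 months overlapped, and the change between these ages, 0.73 ± 0.35, was not called (adjusted p-value 0.103).
Mir470 lay between 2.26 and 4.07 CPM in males at 2 months, between 7.91 and 30.03 at 6 months and between 31.9 and 96.9 at 10 months. The 4 females at 2 months were at 0.332 to 0.951 CPM, again at or under 3 counts each, and those at 10 months at 0.732 to 5.89 CPM, and these ranges overlapped. Over both sexes Mir470 changed by 3.81 ± 0.49 (SE; adjusted p-value 5.08e-06), by 4.13 in males alone and by 3.60 without the 3 libraries, each called. In females alone it was not called (adjusted p-value 0.204), nor within lane number 3, where the value was 4.20 (adjusted p-value 0.112).

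Mir592 (chr6:27936655-27936750, minus strand), which overlaps an annotated exon of *Grm8*, a glutamate receptor gene, rose mainly before 6 months. In males it was at 22.8, 17.4, 17.03 and 19.5 CPM at 2 months, at 49.1 to 60.7 CPM at 6 months and at 53.5 to 63.2 CPM at 10 months. In females it was at 0.332 to 1.08, 1.83 to 6.21 and 3.78 to 7.07 CPM at the 3 ages. The log2 change was 2.19 ± 0.25 from 2 to 10 months (SE; adjusted p-value 8.95e-07) and 2.00 ± 0.25 from 2 to 6 months (adjusted p-value 1.79e-06), and the 0.19 ± 0.23 between 6 and 10 months was not called (adjusted p-value 0.66). Fitted alone, males changed by 1.61, called. Females alone were called as well (adjusted p-value 0.00605), but 3 of 4 at 2 months were at or under 3 counts, so no fold is given for them. The change was 1.93 without the 3 libraries, called, and 2.08 within lane number 3, not called (adjusted p-value 0.124).

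**Figure D2:**
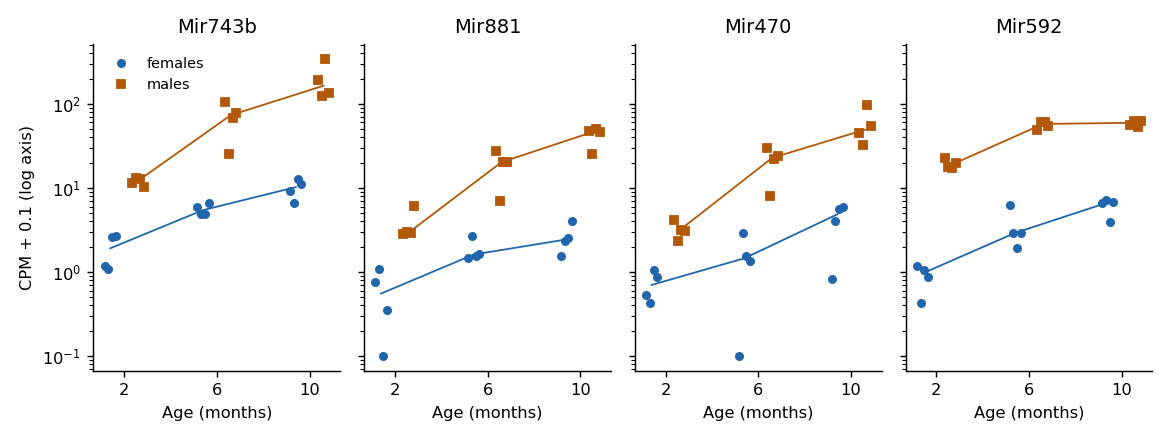
Level of Mir743b, Mir881, Mir470 and Mir592 in wild-type liver at 2, 6 and 10 months (horizontal axis, months), with CPM plus 0.1 on a logarithmic vertical axis so that libraries at 0 can be drawn. Each point is 1 mouse, females as blue circles and males as orange squares, and lines join the medians of 4 mice. Males lay above females at every age, and in males Mir743b went from 10.0 to 12.9 CPM at 2 months to 124 to 343 CPM at 10 months.

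The rise extended over most of the X-linked group. A list of this region held 20 precursors in the table, and the list was chosen with these results known. Only 5 reached 10 counts in 8 libraries, and a precursor that passed through its level in old males alone had to differ, so the count of 3 called higher among those 5, against 3.28% of all tested, gives no support of its own. With no minimum count, 1073 precursors could be fitted, 17 of them were called higher (1.58%), and 14 of those 17 were in this list, with 0 of its members lower. Members outside the 5 were scarce, at most 25.7 CPM in any library, and their fitted changes depend on the prior count, so counts are given. Mir741 had 1 count in the 4 males at 2 months, 102 at 6 months and 64 at 10 months, against 0, 9 and 10 in females. Mir871 had 8 counts in the 4 males at 2 months, 36 at 6 months and 128 at 10 months, against 3, 5 and 8 in females. Mir883a had 1, 4 and 45 counts in males and Mir878 1, 17 and 45. The paired copies of Mir465b, with 7, 20 and 89 counts in males, and those of Mir465c, with 16, 21 and 143, had the same values and cannot be told from each other. Both copies of each are counted in the 14, as are Mir743b, Mir881 and Mir470. In each case most counts at 10 months came from males. The 6 members not called higher were Mir201, Mir547, Mir463, Mir880, Mir883b and Mir742. Mir201, at 2.54 to 4.51 CPM at 2 months and 0.617 to 5.94 CPM at 10 months, was the 1 member with a value below 0 (-0.24). Summed over the 20, the group held 7.93 to 32.5 CPM at 2 months (median 20.0), 14.5 to 210 at 6 months (median 40.1) and 23.4 to 638 at 10 months (median 137), so that the ages overlapped when both sexes were pooled.

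The same 4 leading precursors rose in every knock-in line, in which the fit was repeated with that line's mice alone. From 2 to 10 months the log2 change of Mir743b lay between 3.11 and 4.19 over the 6 lines, that of Mir470 between 3.18 and 4.26, that of Mir881 between 2.98 and 4.76 and that of Mir592 between 1.36 and 2.26, and each was called in 6 of 6 lines. In those fits 4.55%, 4.21%, 3.53%, 7.42%, 5.26% and 15% of the precursors tested were called higher in Q20, Q80, Q92, Q111, Q140 and Q175, and 2.45%, 2.11%, 0.353%, 5.3%, 4.91% and 5.94% lower. With no minimum count, 14 of the 20 X-linked members were called higher in Q20 against 1.54% of all fitted. The count was 12 in Q80 (1.56%), 11 in Q92 (1.42%), 12 in Q111 (1.45%), 13 in Q140 (1.5%) and 16 in Q175 (4.27%), with 0 called lower in any line. In these lines 20 of 20 had a change above 0, against 19 of 20 in wild type. The 20 hold the paired copies of Mir465b and of Mir465c as separate members. These fits in knock-in lines were chosen after the wild-type result was seen. All lines share the ranges of library numbers at 2 and at 10 months, so agreement over 6 lines cannot separate age from library set.

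Mir501 (chrX:7241243-7241351), in an intron of *Clcn5* together with Mir362, Mir188, Mir500 and Mir532, was higher at 10 than at 2 months and highest at 6 months. Its lowest, median and highest levels were 2.26, 6.60 and 10.3 CPM at 2 months, 27.5, 61.3 and 96.3 CPM at 6 months, and 6.48, 20.0 and 44.4 CPM at 10 months. The lowest library at 6 months and both the highest and the lowest at 10 months were the 3 that stood apart. The log2 change from 2 to 10 months was 1.87 ± 0.33 (SE; adjusted p-value 0.000613) with all libraries and 1.69 without those 3 (adjusted p-value 0.000147). With lane number as a term it was 1.40 and not called (adjusted p-value 0.382). In the knock-in lines it was between 1.25 and 1.93, called in 6 of 6.

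Mir486 (chr8:23142555-23142682), in an intron of *Ank1*, is abundant in red blood cells. It was at 1612 to 4592 CPM at 2 months (median 3660) and at 5086 to 9716 CPM at 10 months (median 5971), and it was the 1 precursor of the 274 tested (0.365%) whose ranges at these ages did not overlap. The log2 change was 1.13 ± 0.27 (SE; adjusted p-value 0.0135), and at 6 months the level was 4299 to 10767 CPM. The value was 0.74 and not called without the 3 libraries (adjusted p-value 0.0673), and in the knock-in lines the change lay between -0.29 and 0.59 with 0 of 6 called. The other red blood cell microRNAs did not pass the test, with 0.20 ± 0.20 for Mir451a and 0.21 ± 0.18 for Mir144 (SE; adjusted p-values 0.703 and 0.632). The list of 3 summed to 3010 to 5755 CPM at 2 months and 6344 to 10598 CPM at 10 months, most of it Mir486.

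Mir221 (chrX:19146294-19146388), a microRNA of cell cycle control, rose by 0.30 ± 0.08 (SE; adjusted p-value 0.0204), from 347 to 443 CPM at 2 months (median 388) to 275 to 540 CPM at 10 months (median 471). The lowest of these, male 4, lay below all others of its age, and the change was 0.27 without the 3 libraries and still called. It was between 0.23 and 0.33 in the knock-in lines, called in 5 of 6. Mir184 (chr9:89802260-89802328), at 1.18 to 5.26 CPM at 2 months and 0.617 to 14.1 CPM at 10 months, rose by 1.33 ± 0.38 (SE; adjusted p-value 0.0493), by 1.43 without the 3 libraries (adjusted p-value 0.0123), and was called in 2 of 6 knock-in lines. Mir140 (chr8:107551244-107551313), which overlaps an annotated exon of *Wwp2*, rose by 0.34 ± 0.09 (SE; adjusted p-value 0.0386). Its value without the 3 libraries was 0.27 and not called (adjusted p-value 0.0690). It was called in 0 of 6 lines, where its change was 0.04 to 0.15.

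Mir30b (chr15:68337415-68337510) was the only precursor called lower at 10 months, by -0.55 ± 0.15 (SE; adjusted p-value 0.0386). Its levels were 2815, 3148 and 3349 CPM (lowest, median, highest) at 2 months and 1116, 1806 and 3333 CPM at 10 months. In 6 of 8 livers at 10 months it lay below every liver at 2 months, and the remaining 2, female 1 and male 1, were the 2 that carry lane number 8 in their names. In the knock-in lines the change was between -0.61 and -0.34, called in 3 of 6. It was -0.49 and called without the 3 libraries. Mir30b had fractional counts in all 24 libraries, and its level is uncertain where similar precursors share reads.

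**Figure D3:**
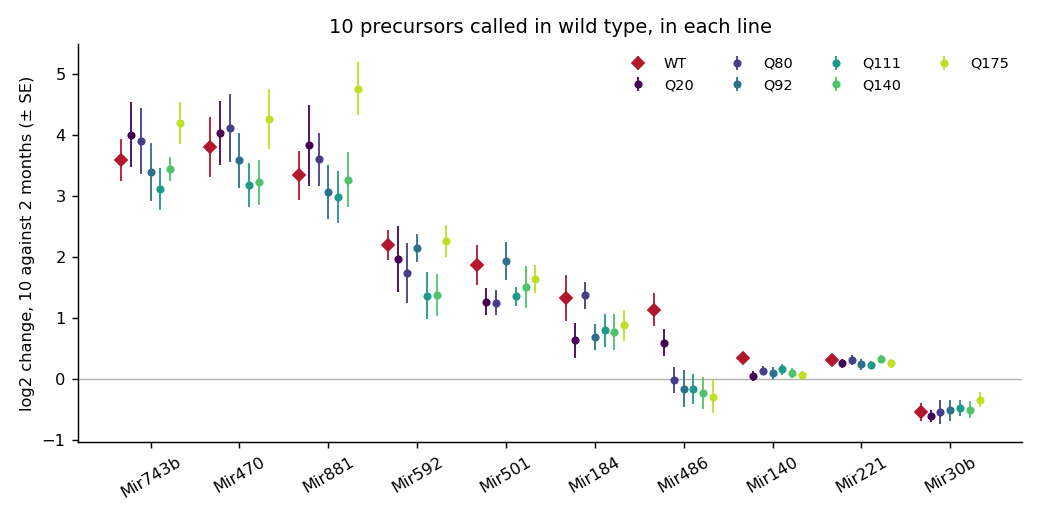
Fitted log2 change from 2 to 10 months (vertical axis, bars ± SE) of the 10 precursors called in wild-type liver, in wild type (red diamond) and in the 6 knock-in lines (circles, in order of repeat length). Mir743b, Mir470, Mir881, Mir592 and Mir501 lay above 1 in all 7, while Mir486 stood at 1.13 in wild type and between -0.29 and 0.59 in the knock-in lines.

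Of the 10 precursors called in wild type, 10 had the same direction in Q20 liver and 7 were called there, which is 70% of the wild-type calls and 35% of the 20 called in Q20 (6.99% of 286 tested). The difference of the 10 against 2 month change between wild type and Q20 was called for 0 of 293 precursors by edgeR's test, with 6 at an unadjusted p under 0.05, and for 0 by DESeq2. Without Q20 female 1 at 10 months, whose library code goes against its label, 15 were called in Q20 and 0 for the difference. A p-value that misses the threshold does not show that both genotypes aged alike.

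By the fitted changes, 6 months lay between 2 and 10 months for 6 of the 10 precursors. The share was 15.3% over all 274, most of which changed little between 2 and 10 months, so the figures are not comparable. For Mir743b, Mir881, Mir470, Mir592 and Mir184, between 0.68 and 0.91 of the log2 change was reached by 6 months, and for Mir221 0.12. For Mir501, Mir486, Mir140 and Mir30b the fitted 6 month value lay beyond that of 10 months. Levels in CPM, which lack the TMM scaling, placed Mir140 and Mir221 otherwise. The median of Mir140 at 6 months, 774 CPM, lay between 651 at 2 and 858 at 10 months. That of Mir221 at 6 months, 309 CPM, lay below both 388 at 2 and 471 at 10 months.

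Far more precursors distinguished 6 months from the other ages than distinguished 10 from 2 months. The same held in each knock-in line fitted alone. In wild type, 119 of 274 were called against 2 months (43.4%), 48 higher and 71 lower. Against 6 months, 94 were called at 10 months (34.3%), 59 higher and 35 lower. In 77 (28.1%) the 6 month level was apart from both others in 1 direction, high in 27 (9.85%) and low in 50 (18.2%), and these are the precursors described next. These 2 comparisons share the 6 month libraries. Without the 3 libraries that stood apart the counts were 148 against 2 months and 143 between 6 and 10 months, and 118 were apart from both, 40 high and 78 low. These 118 held all of the 77 with the same direction. Since the 3 were singled out for resembling livers of another age, leaving them out favours higher counts here.

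Those 77 were also the measure of how far the 3 libraries stood apart. Female 3 at 6 months lay outside the range of the other 7 livers of its age for 69 of them, 68 in the direction of the 2 and 10 month livers. At 10 months, female 4 lay outside the range of the 6 remaining livers for 52, 41 of them toward 6 months, and male 4 for 59, 51 of them toward 6 months. Over all 274 tested, these 3 livers lay outside the range for 62.0%, 55.8% and 65.7%. The other 21 livers, each against those of its age that did not stand apart, lay outside for 13.1% to 42.3% of all tested and 9.09% to 46.8% of the 77, a set chosen from these same libraries. Along the direction of the 77, the median log2 distance from the 2 month wild-type median, a value that the choice of the 77 fixes for wild type, was 1.08 in wild-type livers at 6 months (0.15 to 1.19). It was 0.07 in knock-in livers at 6 months (-0.14 to 0.18) and 0.44 in the 8 knock-in livers with the highest numbers at 10 months (-0.03 to 1.06). At 6 months the knock-in median takes in members that shifted with and against the wild-type direction, as given in what follows.

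Ranked by the larger of their 2 p-values, the first 6 of those high at 6 months were the 3 of the miR-99 and miR-100 family, Mir125b-1, which lies near Mir100, Mir501 and Mir30d. Mir100 was at 331 to 377 CPM at 2 months, 477 to 963 CPM at 6 months (median 818) and 259 to 626 CPM at 10 months (median 420). Its log2 change was 1.62 ± 0.17 from 2 to 6 months (SE; adjusted p-value 2.11e-07) and -1.19 ± 0.17 from 6 to 10 months (adjusted p-value 0.000109). Mir99b moved by 1.79 ± 0.20 and -1.15 ± 0.20, Mir99a by 0.61 ± 0.10 and -0.46 ± 0.10, and Mir125b-1 by 1.20 ± 0.18 and -0.99 ± 0.18. All 3 precursors that carry the seed ACCCGUA were thus high, and their values stayed above 0 under each scaling tried. Mir30d, at 10097 to 11894 CPM at 2 months and 11722 to 14675 CPM at 6 months, moved by 0.65 ± 0.10 and -0.56 ± 0.10.

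Among those low at 6 months, Mir193a ranked first by the larger of its 2 p-values. Its lowest, median and highest levels were 265, 391 and 503 CPM at 2 months, 41.3, 53.8 and 218 CPM at 6 months, and 171, 229 and 688 CPM at 10 months, with the 218 CPM in female 3. The log2 change was -2.14 ± 0.30 and then 1.93 ± 0.30 (SE; adjusted p-values 9.48e-06 and 0.00016). Mir30b moved by -1.44 ± 0.15 and 0.89 ± 0.15, Mir574 by -0.87 ± 0.13 and 0.76 ± 0.13, Mirlet7d by -0.79 ± 0.13 and 0.76 ± 0.13, Mir744 by -0.77 ± 0.11 and 0.68 ± 0.11, and Mir676 by -0.63 ± 0.10 and 0.62 ± 0.10. In all 6 the highest of the 8 livers at 6 months was female 3. Without the 3 libraries all 12 named here as high or low were called in both comparisons, with Mir193a at -2.63 and 2.43 and Mir100 at 1.58 and -1.30. The 3 were singled out for resembling other ages, so leaving them out favours such calls. In females alone, with 4 livers at each age, the 12 were not called between 6 and 10 months (adjusted p-values 0.0958 to 0.158). Within lane number 3, only Mir125b-1 and Mir193a of them were called between these ages. Mir22 and Mir122, both abundant in hepatocytes, were low as well, with -0.80 and 0.69 for Mir22 and -0.87 and 0.65 for Mir122. The hepatocyte-rich list as a whole went both ways, with 4 of 13 low (Mir22, Mir122, Mir193a and Mir455) against 18.2% of all tested and 3 of 13 high (Mir148a, Mir101b and Mir194-1) against 9.85%. Mir192, another abundant member, was higher at 6 than at 2 months by 0.89 and not called between 6 and 10 months.

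**Figure D4:**
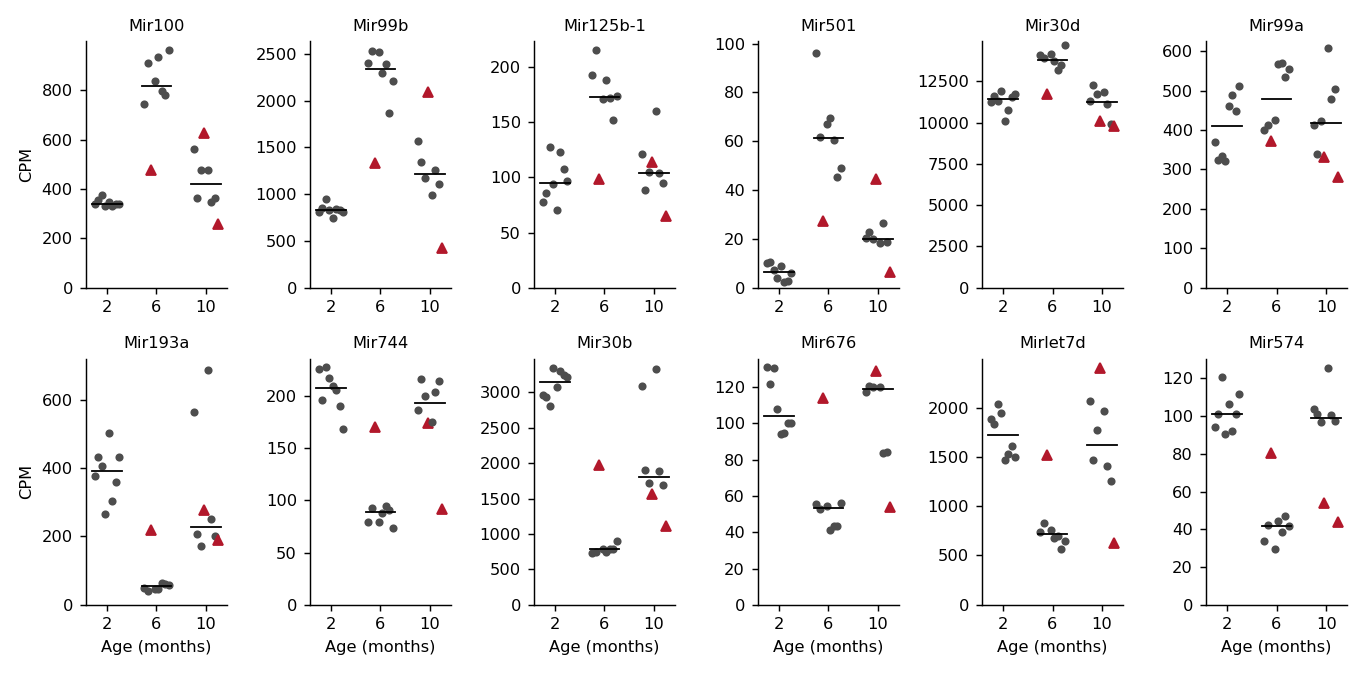
Level in CPM (vertical axis from 0, its own scale in each panel) of the 6 precursors named as high at 6 months (upper row) and the 6 named as low (lower row), at 2, 6 and 10 months of age in wild-type liver. Each point is 1 mouse, black lines are medians of 8, and red triangles mark female 3 at 6 months and female 4 and male 4 at 10 months. In the lower row female 3 is the highest liver at 6 months in all 6 panels.

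Some neighbouring precursors moved in opposite directions at 6 months. Among the tested precursors, 106 lay in 42 groups on 1 strand with gaps of at most 50 kb, a grouping chosen after the values were seen, and 12 groups held at least 2 of the 77. In 8 of these 12 the members went both ways. With 27 of the 77 high and 50 low, mixed groups arise without any tie between neighbours. How many would arise so was not worked out, and the 8 are not read as a result about neighbours. Each pair of the miR-30 family was split, with Mir30a, Mir30d and Mir30e high by 0.88, 0.60 and 0.39 and Mir30c-2, Mir30b and Mir30c-1 low by -0.72, -1.16 and -0.32, where the value is the log2 level at 6 months less the mean of 2 and 10 months. On chromosome 9 Mir100 (1.40) and Mir125b-1 (1.09) flanked Mirlet7a-2 (-1.04), and on chromosome 16 Mir99a (0.53) and Mir125b-2 (0.37) flanked Mirlet7c-1 (-0.98). In the group in *Clcn5*, Mir501 (2.69) and Mir532 (0.77) were high and Mir188 (-1.08) was low. The split precursors outside the *Clcn5* group had fractional counts in at least 17 of 24 libraries, except Mir30d with 3. A scaling moves all members of a group alike, so it can change their signs, and both directions were found in 6 of the 8 groups with RLE factors, 6 with DESeq2 and 5 on the FPKM scale, and in all 8 without the 3 libraries. The signs of the 6 miR-30 precursors were the same under each of these.

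**Figure D5:**
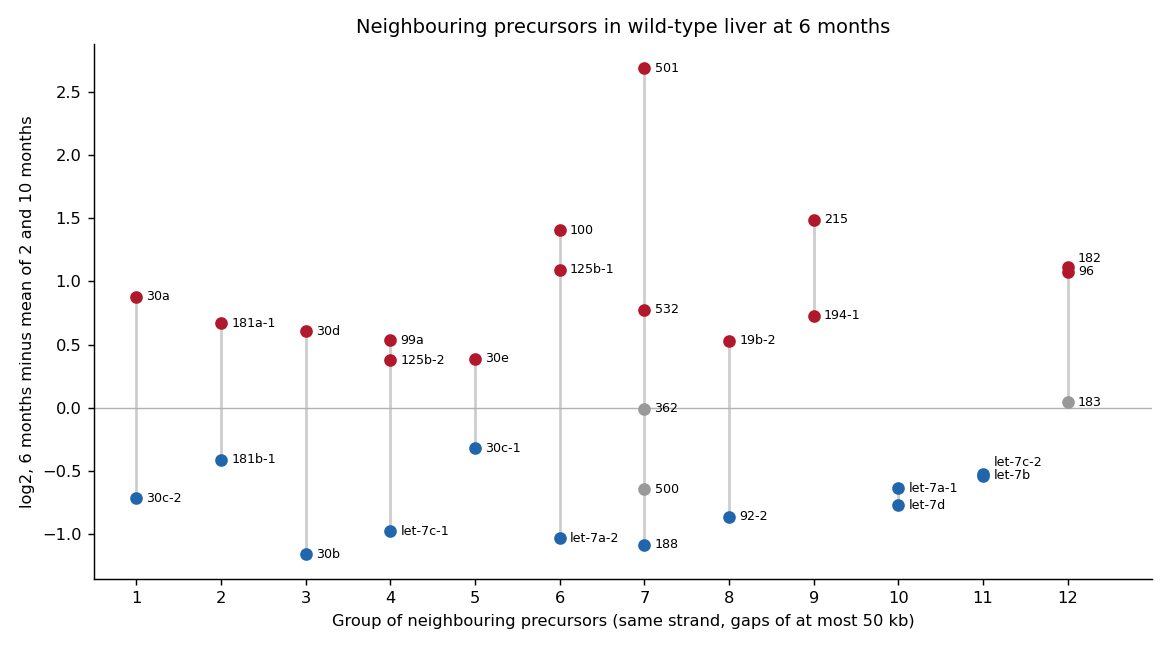
Log2 level at 6 months less the mean of 2 and 10 months (vertical axis) in 12 groups of neighbouring precursors (horizontal axis), wild-type liver. Red points were apart from both other ages and high, blue points apart and low, grey points neither, and names are given without the prefix Mir. The first 8 groups hold both red and blue points, and groups 9 to 12 hold 1 direction.

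The let-7 family, known to repress cell growth genes, had 10 tested precursors, of which 6 were among the 77 and all 6 low, against 18.2% of all tested. Members that make the same mature strand, as Mirlet7c-1 and Mirlet7c-2 do, may share reads, so the 6 are not separate observations. The 18.2% also counts some transcripts with the same values more than once. They were Mirlet7a-2 (-1.04), Mirlet7c-1 (-0.98), Mirlet7d (-0.77), Mirlet7a-1 (-0.64), Mirlet7b (-0.54) and Mirlet7c-2 (-0.53). Mirlet7f-2, Mirlet7g, Mirlet7i and Mir98 were not among them, with shifts of -0.03, 0.25, -0.01 and -0.18. The median of the list was -0.53, beside -0.09 over all tested. With RLE factors 4 were low and with DESeq2 5, on the FPKM scale 9, and without the 3 libraries 7 were low and 1 high. The summed level of the family was 35347 to 44424 CPM at 2 months, 23549 to 40728 at 6 months and 22407 to 79744 at 10 months, and these ranges overlapped.

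In the knock-in lines, whose 6 month libraries come from another set, many precursors were also apart at 6 months in each line's own fit. These were 108 of 286 tested in Q20, and from 86 of 285 in Q80 to 129 of 285 in Q140 over the 6 lines. The 77 of wild type split in these lines. For 31 the shift at 6 months had the wild-type direction in 6 of 6 lines, for 26 it had the opposite direction in 6 of 6, and for 20 it was mixed. These are signs only, and the same split over all precursors tested was not worked out. Between 31 and 40 of the 77 were apart in a line's own fit, 14 to 20 of them in the wild-type direction. The lines share ranges of library numbers at each age, so 6 lines are not 6 separate observations. Shared shifts included Mir193a (-2.42 to -1.60 over the lines, against -2.03 in wild type), Mir30b (-1.41 to -0.97 against -1.16), Mir30d (0.45 to 0.64 against 0.60) and Mir501 (0.88 to 1.35 against 2.69). Opposite shifts included Mir744 (0.67 to 1.02 against -0.73), Mirlet7d (0.14 to 0.61 against -0.77) and Mir676 (0.07 to 0.70 against -0.63), and all 6 let-7 precursors were opposite in 6 of 6 lines. The difference of these shifts between wild type and the lines was not tested, since genotype and library set cannot be told apart at that age.

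The GC content of the precursor sequence in the annotation, known for 26 of the 27 high and 46 of the 50 low, had a median of 50.2% (quartiles 46.1% and 52.3%) in the high and 55.3% (47.2% and 61.0%) in the low, beside 50.8% (44.8% and 57.1%) over 252 of the 274 tested.

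In the other lists no member was called between 2 and 10 months, where 3.65% of all tested were called, so that counts of 0 in lists of this size lie near the background. In the hepatocyte-rich list 0 of 13 were called, in the let-7 list 0 of 10, in the miR-29 family 0 of 4, in the Mir17 to Mir92 clusters 0 of 11, and in the list of lipid and glucose microRNAs 0 of 12. Among 9 tested microRNAs tied to senescence and p53, 0 were called, and Mir34a, a p53 target, had the largest value, 0.70 ± 0.25 (SE; adjusted p-value 0.166). Without the 3 libraries Mir34a was called higher, at 0.90 (adjusted p-value 0.00702). In that fit Mir181a-1 of the same list was called lower, at -0.37 (adjusted p-value 0.0394), as was Mir802 of the hepatocyte-rich and the lipid and glucose lists, at -0.42 (adjusted p-value 0.0413). Of the imprinted Dlk1-Dio3 cluster, 44 members were in the table, 8 passed the filter and 0 were called. Lists of white blood cell, endothelial, stellate cell and biliary microRNAs had 0 of 6, 0 of 1, 0 of 8 and 0 of 7 called. Their summed levels overlapped between 2 and 10 months, 2480 to 4261 against 2500 to 4985 CPM for white blood cells and 397 to 1899 against 270 to 600 CPM for the biliary list.

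Sex was compared over all 24 livers, and 55 precursors were called (20.1%), 23 higher in males (8.39%) and 32 in females (11.7%). Mir1948, in an intron of *Ttc39c*, had the smallest p-value and was at 292 to 554 CPM in males and 40.5 to 96.8 CPM in females (log2 change 2.999 ± 0.11, SE; adjusted p-value 3.65e-17). Mir802, a regulator of liver glucose metabolism, was lower in males by -1.37 ± 0.10 (SE; adjusted p-value 1.07e-10). Mir592, Mir743b and Mir881 were higher in males by 3.91 ± 0.21, 3.74 ± 0.27 and 3.57 ± 0.33. Without the 3 libraries 66 were called, and the values of these 5 were 2.97, -1.40, 3.83, 3.72 and 3.55, all called.

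Whether the change from 2 to 10 months differed between the sexes was tested as an interaction, and 0 of 274 precursors were called, with 25 at an unadjusted p under 0.05 and 0 by DESeq2, and 0 without the 3 libraries. The smallest p-values belonged to Mir700, Mir155 and 3 members of the Dlk1-Dio3 cluster, Mir411, Mir410 and Mir381, with adjusted p-values of 0.294 to 0.334. Mir411 was at 27.1, 34.8, 29.6 and 59.8 CPM in females and 49.9, 309, 194 and 146 CPM in males at 10 months, against 38.2 to 97.0 CPM over both sexes at 2 months. For Mir743b the male less female difference in change was 1.67 (adjusted p-value 0.359) and for Mir592 -1.10 (adjusted p-value 0.411), and neither was called. Leaving out 1 liver at a time gave 0 to 1 calls, the 1 call being Mir411 without male 1 at 10 months, and a p-value that misses the threshold does not show that the sexes changed alike.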

How the data were processed

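Total RNA was extracted from flash-frozen liver with the miRNeasy kit, small RNA libraries were sequenced on Illumina HiSeq instruments, and the reads, clipped of adapter, were aligned to mm10 with STAR and counted with HTSeq, as the methods state. The authors deposited estimated counts per microRNA precursor, of which 50.2% of the wild-type values above 0 were whole (within 0.0005). How the fractional values arose is not given in the sources used here. The authors also deposited FPKM values, which were used for 1 alternative. The analysis had been planned for whole counts, and the estimated counts were rounded to whole numbers. Counts cover counting error only and no molecular identifiers were used. Of 1626 transcripts, 1228 were matched to GENCODE M21, and the rest keep their transcript identifier.

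Precursors with at least 10 counts in at least 8 libraries were tested with edgeR 4.0.16 (R 4.3.3), TMM factors and the robust quasi-likelihood test, in 1 fit of the 24 wild-type libraries with age and sex, and Benjamini-Hochberg adjustment over all tested. Fits of fewer than 16 libraries required 4. Being apart at 6 months meant being called against both other ages in 1 direction. Sex by age and wild type by Q20 were tested as interactions, and each line was fitted in the same way. Alternatives were RLE factors, DESeq2 1.42.0, limma 3.58.1 on log2(FPKM + 1), no filter, lane number, the replicate number as a block, single sexes, single lanes and leaving out libraries. Leaving out the 3 libraries that stood apart or those numbered highest at 10 months, and the unfiltered fits in each line, were chosen after seeing the data. The test was tried on simulated data. Named precursors were the 5 most abundant at each age, up to 12 called per direction for 10 against 2 months, the 6 per direction with the smallest p for 6 months, the 5 smallest p for sex and for sex by age, and in each list the called members and up to 3 others by abundance. Members and lists were chosen with earlier results of these data known. No library pair of a group agreed within sampling noise.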

Additional observations from a re-analysis of the deposited data

Results flagged for a closer look

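In 11 of 99 groups of 8 livers examined (33 precursors at 3 ages), 1 liver lay far from the others by Dixon's criterion. Chance gives about 1 in 20 for 8 values from 1 normal distribution. These groups mix both sexes, share livers and use precursors chosen from these data, so the rates cannot be compared. Of the 11, 8 were female 3 at 6 months, all but Mir22 in precursors named for being apart at that age. Its Mir22 level was 202232 CPM against a next highest of 89491 CPM. Mir30b was at 1969 CPM (next 908), Mir193a at 218 CPM (next 64.9), Mir744 at 170 CPM (next 94.6), Mir676 at 114 CPM (next 56.1), Mirlet7d at 1515 CPM (next 827) and Mir574 at 80.2 CPM (next 47.1). Its Mir100 level, 477 CPM, was below all others (next 746).

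Male 4 at 10 months accounted for 2, with Mir221 at 275 CPM against a next lowest of 443 CPM and Mir744 at 92.0 CPM against 174 CPM. Female 2 at 10 months had Mir155, a microRNA of activated immune cells, at 59.1 CPM against a next highest of 18.3 CPM.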

How the results depend on the processing

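Mir743b, Mir592, Mir881 and Mir470 were called in all 24 fits that left out 1 wild-type liver. Mir501 and Mir486 were called in all 24 as well, Mir221 in 21, Mir140 in 13, Mir30b in 9 and Mir184 in 7. Leaving out 1 liver at a time gave 6 to 13 calls for 10 against 2 months, 100 to 126 for 6 against 2, 78 to 120 for 10 against 6, 44 to 61 for sex, 59 to 95 apart at 6 months, 0 to 1 for sex by age, 14 to 24 in Q20 and 0 to 0 for the difference from Q20. For 10 against 2 months, against 10 calls, no low-count filter gave 19, a lane term 5, lane number 3 alone 3 and females alone 4. For 6 against 2 months, against 119, a lane term gave 66, lane number 3 alone 10 and females alone 38. For 10 against 6 months, against 94, lane number 3 alone gave 2, females alone 1, males alone 59 and leaving out the 3 libraries 143. For 6 months apart from both, against 77, a lane term gave 44, lane number 3 alone 2, FPKM 116, females alone 1, males alone 45 and leaving out the 3 libraries 118. In Q20, against 20, a lane term gave 2. Fits of single sexes or lanes held fewer livers, and the cause of the other changes was not tested.

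The split of 6 months apart was 27 high and 50 low with TMM, 33 and 39 with RLE, 37 and 43 with DESeq2, and 22 and 94 on the FPKM scale. No named result reversed its direction under any alternative run.

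Replicate numbers did not pair the livers: 9 of 24 correlations of same-numbered livers were over 0.1 (-0.40 to 0.43). With the replicate number as a block, 10 against 2 months gave 5 calls and Q20 13, 6 against 2 months 119, 10 against 6 months 98 and 6 months apart 84.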
